A study of Mus musculus with 6 samples.

Results

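The genes examined here were 10 endothelial transcription factor genes, *Erg*, *Fli1*, *Ets1*, *Sox7*, *Sox17*, *Sox18*, *Tal1*, *Lyl1*, *Gata2* and *Hhex*, taken by symbol from the 56980 genes of the deposited table. Each symbol matched 1 gene. RNA-Seq was done on MSCs, the stromal cells that adhere to plastic when bone marrow is cultured. By the study's methods, female mice underwent ovariectomy (OVX) at 8 weeks of age, their own gut microbiota was depleted with antibiotics, and they then received fecal microbiota transplantation (FMT) by gavage for 8 weeks. In the TranspCtrl group (titled FMT-Ctrl, 3 samples) the feces came from sedentary OVX mice, and in the TranspExer group (titled FMT-Exer, 3 samples) from OVX mice trained on a treadmill. Flushed marrow of the recipients was cultured for 7 days with repeated washes, and no sorting step is described, so other marrow cells that adhered could be present. The labels do not say whether a sample was 1 mouse or a pool, so the p-values below measure the spread between these samples only.

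The question was whether the transcription factors that specify blood vessel cells differed between MSC cultures of the 2 recipient groups. Endothelial cells line blood vessels, and in bone marrow they form the arterioles and sinusoids among which stromal cells and blood-forming cells lie. Their identity is held by a small set of DNA-binding proteins that act together. ERG, FLI1 and ETS1 carry the ETS domain. SOX7, SOX17 and SOX18 form the SOXF group, which binds DNA through an HMG box. TAL1 and LYL1 are basic helix-loop-helix factors, GATA2 is a zinc-finger factor and HHEX a homeobox factor. Blood and endothelium share a developmental origin, and TAL1, LYL1, GATA2, FLI1 and ERG also work in blood stem cells and in megakaryocytes or mast cells, ETS1 in lymphocytes and HHEX in B cell progenitors and macrophages. The SOXF genes are the members most closely tied to vessels.

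Estimated counts totalled 17647682 to 21319228 per sample, and the lowest count of any member in any sample was 23, above the floor of 3 counts used here (0.139 to 0.174 CPM, counting error only). CPM are counts scaled to a common library total, here after TMM normalization in edgeR. All 10 members were among the 15190 genes that passed the low-count filter. TranspCtrl replicate 1 stood apart from its group. It was the lowest of the 3 TranspCtrl samples for 8 members, at 0.474 times the mean of the other two for *Sox18* and 0.831 times for *Sox17*, and the highest for *Erg* and *Lyl1*. Values without it are given where they change a call. DEGs had an adjusted p-value under 0.05 (edgeR's quasi-likelihood test, Benjamini-Hochberg adjustment over all genes tested) with expression changed by a factor of 2 or more.

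The lowest TranspExer value lay above the highest TranspCtrl value for all 10 members, and all 10 passed the adjusted p-value threshold. Across all genes tested, 27.2% were separated in this direction (52.4% in either) and 16.6% passed this threshold in this direction. Past both thresholds there were 6 upregulated members, *Sox17*, *Sox18*, *Sox7*, *Gata2*, *Tal1* and *Erg*, against 3.5% of all genes higher, 5.28% lower and 8.78% in either direction, and the 4 others had fold changes under 2. The median log2 fold change of the members was 1.12, beside -0.02 for all genes. Fold changes ran from 1.27 for *Lyl1* to 6.45 for *Sox17*, with the SOXF genes at the top. In bulk RNA, more cells of a type and more RNA per cell cannot be told apart.

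**Figure D1:**
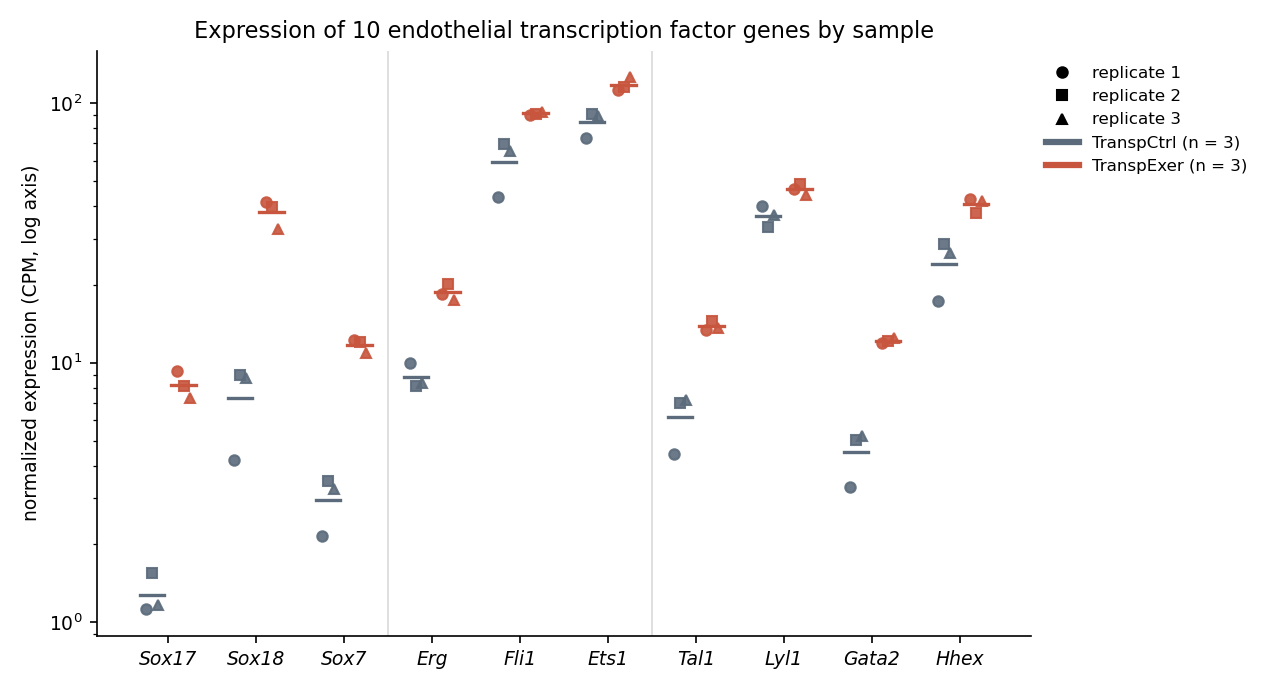
Normalized expression (CPM, log axis) of the 10 genes in each of the 6 samples, with TranspCtrl in grey and TranspExer in red, marker shapes for the replicates and bars for the group means. The lowest TranspExer value lies above the highest TranspCtrl value for every gene, and TranspCtrl replicate 1 (circle) is the lowest grey point except for *Erg* and *Lyl1*.

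The SOXF genes moved most. *Sox17* (ENSMUSG00000025902, chromosome 1), which marks arterial endothelium, was counted 23, 30 and 25 times in the TranspCtrl samples (replicates 1, 2 and 3, the order used throughout) and 177, 140 and 147 times in the TranspExer samples. These were 1.12, 1.54 and 1.16 CPM against 9.26, 8.14 and 7.30 CPM. Each TranspExer sample was several times above each TranspCtrl sample, and the groups were far apart. *Sox17* rose from a mean of 1.28 CPM (SD 0.230, n = 3) to one of 8.23 CPM (SD 0.982, n = 3), with a log2 fold change of 2.69 ± 0.19 (SE, edgeR adjusted p = 8.1e-05).

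*Sox18* (ENSMUSG00000046470, chromosome 2), which acts in vessel and lymphatic development, stood at 4.20, 8.98 and 8.74 CPM in TranspCtrl. In TranspExer it reached 41.7, 39.8 and 32.6 CPM. Per length it was the most abundant of the SOXF genes in all 6 samples, and the member with the widest relative spread in TranspCtrl (coefficient of variation 36.9%). *Sox18* rose by a log2 fold change of 2.38 ± 0.25 (SE, edgeR adjusted p = 0.000477), or 2.10 without TranspCtrl replicate 1.

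*Sox7* (ENSMUSG00000063060, chromosome 14), an early regulator of endothelial fate, had 2.15, 3.49 and 3.25 CPM in the TranspCtrl samples and 12.2, 12.0 and 10.9 CPM in the TranspExer samples. The TranspExer values lay close together, with the lowest of them over 3 times the highest TranspCtrl value. *Sox7* rose by a log2 fold change of 1.98 ± 0.18 (SE, edgeR adjusted p = 0.000265). The 3 SOXF genes were the only members that also passed when the fold change of 2 was tested inside the model, with adjusted p-values of 0.00094 for *Sox17*, 0.00717 for *Sox18* and 0.00585 for *Sox7*.

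The ETS genes moved less, and unequally. *Erg* (ENSMUSG00000040732, chromosome 16), which keeps junction and lineage genes on in mature endothelium, had 10.01, 8.11 and 8.37 CPM in the TranspCtrl samples, and 18.4, 20.1 and 17.4 CPM were found in the TranspExer samples. The 2 groups were well apart, and TranspCtrl replicate 1 was here the highest of its group. *Erg* rose by a log2 fold change of 1.08 ± 0.12 (SE, edgeR adjusted p = 0.000587). It sat just above the fold change threshold, at 0.99 with library-size scaling and 1.00 with upper-quartile normalization, where it was no longer a DEG.

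Promoter windows from 250 bases before to 50 bases after a transcript start, taken from RefSeq (GRCm38.p6), were used for 5 of the 10 members, 9 windows in all. Windows of *Sox7*, *Sox17*, *Sox18*, *Fli1* and *Ets1* were not analysed here. *Erg* had 3 starts in this set, which the gene counts do not separate. Their 250 bases before the start are shown here because *Erg* is the ETS member that passed both thresholds and because its windows hold short matches for the DNA-binding families of other members. Capitals mark short motifs on either strand: GGAAG for the ETS family, ACAATG and its close variant ACAAAG for the SOX family, and AGATAA for zinc-finger factors like GATA2.
Erg upstream start, chr16:95586594-95586843, minus strand: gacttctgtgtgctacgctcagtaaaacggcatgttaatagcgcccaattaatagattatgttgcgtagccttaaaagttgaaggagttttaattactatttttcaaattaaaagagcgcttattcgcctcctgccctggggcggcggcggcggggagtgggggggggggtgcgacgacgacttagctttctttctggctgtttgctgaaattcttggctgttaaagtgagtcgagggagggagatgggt
Erg middle start, chr16:95530366-95530615, minus strand: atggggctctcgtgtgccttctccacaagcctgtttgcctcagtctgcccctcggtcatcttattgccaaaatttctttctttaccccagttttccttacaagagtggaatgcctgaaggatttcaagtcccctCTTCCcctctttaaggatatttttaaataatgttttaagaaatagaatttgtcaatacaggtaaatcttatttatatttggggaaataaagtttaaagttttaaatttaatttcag
Erg downstream start, chr16:95459349-95459598, minus strand: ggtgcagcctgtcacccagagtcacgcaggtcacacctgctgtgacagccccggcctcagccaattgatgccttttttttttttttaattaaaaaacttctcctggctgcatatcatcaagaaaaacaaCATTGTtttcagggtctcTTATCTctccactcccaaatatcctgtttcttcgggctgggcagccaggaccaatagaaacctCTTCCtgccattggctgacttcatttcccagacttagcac
The window of the downstream start held an ACAATG match at -121 to -116, an AGATAA match at -103 to -98 and a GGAAG match at -40 to -36, counted from the start, all on the reverse strand, and that of the middle start a GGAAG match at -116 to -112. Of all 32851 windows of 300 bases, 71.4% held GGAAG, 12.6% ACAATG, 18.7% ACAAAG and 11.2% AGATAA, so single matches are common. The longer ETS motif CCGGAAGT (3.89% of windows) and ACAAAG were in none of the 9 windows of the members. Such matches are a description of letters, not of binding sites.

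*Fli1* (ENSMUSG00000016087, chromosome 9), the closest relative of *Erg* among the members and a regulator of megakaryocytes as well as vessels, had 43.3, 69.4 and 65.6 CPM in TranspCtrl and 90.2, 90.9 and 92.6 CPM in TranspExer. The TranspExer samples were nearly equal, with a coefficient of variation of 1.36% against 23.7% in TranspCtrl. *Fli1* was higher by a log2 fold change of 0.62 ± 0.16 (SE, edgeR adjusted p = 0.022), or 0.44 without TranspCtrl replicate 1 (adjusted p = 4.45e-05). Its adjusted p-value was over 0.05 when TranspExer replicate 1, 2 or 3 was left out (0.0656, 0.0687 and 0.0769).

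*Ets1* (ENSMUSG00000032035, chromosome 9), active in angiogenic endothelium and in lymphocytes, had 73.3, 90.7 and 89.1 CPM in the TranspCtrl samples and 112, 115 and 126 CPM in the TranspExer samples. The groups did not overlap, at a distance that was small beside that of the SOXF genes. *Ets1* was higher by a log2 fold change of 0.48 ± 0.10 (SE, edgeR adjusted p = 0.00985). *Ets1* and *Fli1* lie next to each other on chromosome 9 (GRCm38, 32636221 to 32757820 and 32422204 to 32542861), on opposite strands, and their gene bodies do not overlap.

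Among the other members, the factors with a central role in blood stem cells fell on both sides of the fold change threshold. *Gata2* (ENSMUSG00000015053, chromosome 6), needed by blood stem cells, mast cells and endothelium, had 3.32, 5.03 and 5.21 CPM in TranspCtrl and 11.9, 12.1 and 12.4 CPM in TranspExer. *Gata2* rose by a log2 fold change of 1.42 ± 0.17 (SE, edgeR adjusted p = 0.000866), the largest change outside the SOXF group.

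*Tal1* (ENSMUSG00000028717, chromosome 4), which founds the blood lineage and is kept on in part of the endothelium, had 4.44, 6.98 and 7.16 CPM in TranspCtrl and 13.3, 14.5 and 13.6 CPM in TranspExer. *Tal1* rose by a log2 fold change of 1.16 ± 0.18 (SE, edgeR adjusted p = 0.00262). Without TranspCtrl replicate 1, the lowest sample, the value was 0.96, under the fold change threshold, with an adjusted p of 1.76e-05. The bases before its 2 starts in this set are given for comparison with *Erg*, with the same capitals.
Tal1 upstream start, chr4:115056176-115056425, plus strand: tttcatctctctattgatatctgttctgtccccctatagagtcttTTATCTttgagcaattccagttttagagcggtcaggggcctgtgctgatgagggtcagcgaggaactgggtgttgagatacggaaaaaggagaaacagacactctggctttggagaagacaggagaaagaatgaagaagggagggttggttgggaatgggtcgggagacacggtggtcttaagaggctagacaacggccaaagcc
Tal1 downstream start, chr4:115057561-115057810, plus strand: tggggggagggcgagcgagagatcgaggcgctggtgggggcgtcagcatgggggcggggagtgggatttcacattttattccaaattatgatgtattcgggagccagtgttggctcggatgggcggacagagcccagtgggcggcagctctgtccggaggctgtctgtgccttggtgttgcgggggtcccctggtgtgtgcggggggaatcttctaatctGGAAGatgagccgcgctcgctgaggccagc
The upstream window of *Tal1* shared the AGATAA match with *Erg*, here at -205 to -200 on the reverse strand, and the downstream one held GGAAG at -30 to -26 and, beyond the printed bases, at 3 to 7 on the reverse strand. No other window of the members held AGATAA. The windows of *Gata2* held none of the capitalised motifs, and those of *Hhex* and *Lyl1* held GGAAG. The general E-box CANNTG, the letters that factors such as TAL1 read, was in 4 of the 9 windows and in 72.3% of all windows.

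*Lyl1* (ENSMUSG00000034041, chromosome 8), the paralog of *Tal1*, had 40.2, 33.3 and 36.9 CPM in TranspCtrl and 46.8, 48.9 and 44.4 CPM in TranspExer. This was the smallest difference among the members, with a log2 fold change of 0.34 ± 0.09 (SE, edgeR adjusted p = 0.0242). The adjusted p-value was over 0.05 without TranspCtrl replicate 2 or 3 (0.0646 and 0.063), without TranspExer replicate 1, 2 or 3 (0.0878, 0.116 and 0.0673), and under scaling by library size only or by the upper quartile (0.1 and 0.0909). *Lyl1* overlaps *Nfix* on the opposite strand, which had a larger mean count (1990 against 816) and a log2 fold change of -0.11 (adjusted p = 0.719). The labels name a stranded kit, but how strand was used in counting is not given in the sources used here, so reads of the overlap could be shared between these genes.

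*Hhex* (ENSMUSG00000024986, chromosome 19), a homeobox factor of early endothelium, liver and B cell progenitors, had 17.3, 28.5 and 26.5 CPM in TranspCtrl and 42.7, 37.6 and 41.9 CPM in TranspExer. *Hhex* was higher by a log2 fold change of 0.76 ± 0.17 (SE, edgeR adjusted p = 0.0134). The adjusted p-value was 0.0544 without TranspExer replicate 1 and 0.0563 without TranspExer replicate 3. Between groups, the separation of *Hhex* was complete, with 28.5 CPM the highest TranspCtrl value and 37.6 CPM the lowest TranspExer value.

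**Figure D2:**
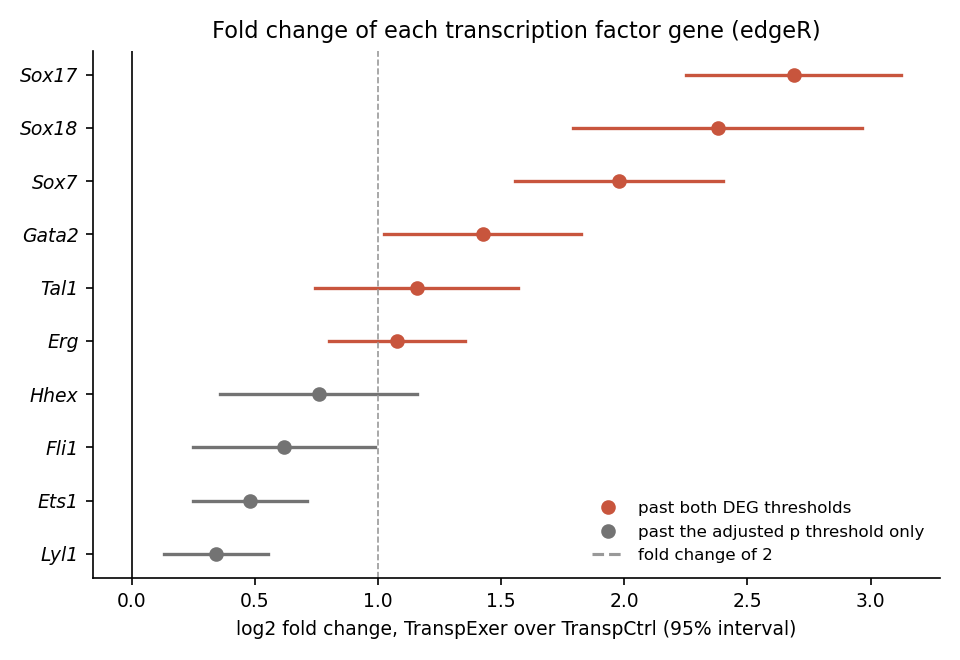
Log2 fold change of each gene, TranspExer over TranspCtrl, from edgeR, with its 95% interval; red points passed both DEG thresholds and the dashed line marks a fold change of 2. The intervals of *Sox17* (2.25 to 3.12), *Sox18* (1.79 to 2.96) and *Sox7* (1.55 to 2.40) lie above those of *Ets1* (0.25 to 0.71) and *Lyl1* (0.13 to 0.55).

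Levels were compared between genes as CPM per kilobase of the deposited gene length. In TranspCtrl, *Ets1* was the highest at 40.1 ± 4.56 CPM per kilobase (SD, n = 3), and *Lyl1*, *Fli1* and *Hhex* followed at 21.5, 17.9 and 13.4. Neighbours among these last 3 overlapped between samples. *Sox18* and *Erg* came next at 4.51 and 2.72, overlapping through TranspCtrl replicate 1 only, where *Sox18* had 2.59 and *Erg* 3.08, and *Tal1*, *Gata2*, *Sox7* and *Sox17* formed the bottom at 1.47, 1.27, 0.899 and 0.843, where no neighbours were separated.

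In TranspExer the order changed for the SOXF genes. *Ets1* was again the highest at 55.9 ± 3.37 CPM per kilobase (SD, n = 3), with *Fli1* and *Lyl1* at 27.5 and 27.2, not separated from each other. *Sox18* reached 23.5 ± 2.96 CPM per kilobase (SD, n = 3), with samples above and below those of *Hhex*, which had a mean of 22.6. *Sox17* went from the last place to 5.44 CPM per kilobase, overlapping with *Erg* at 5.74. *Sox7*, *Gata2* and *Tal1* were the lowest at 3.55, 3.40 and 3.28, with overlapping neighbours.

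Of the summed level per kilobase of the 10 genes, the SOXF genes made up 4.43%, 6.78% and 6.43% in TranspCtrl, while they reached 19.9%, 18.8% and 16.0% in TranspExer. The ETS genes made up 56.6% to 59.1% in TranspCtrl and 48.1% to 52.5% in TranspExer. The set as a whole therefore differed in composition as well as in level, with a larger SOXF share in each TranspExer sample.

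**Figure D3:**
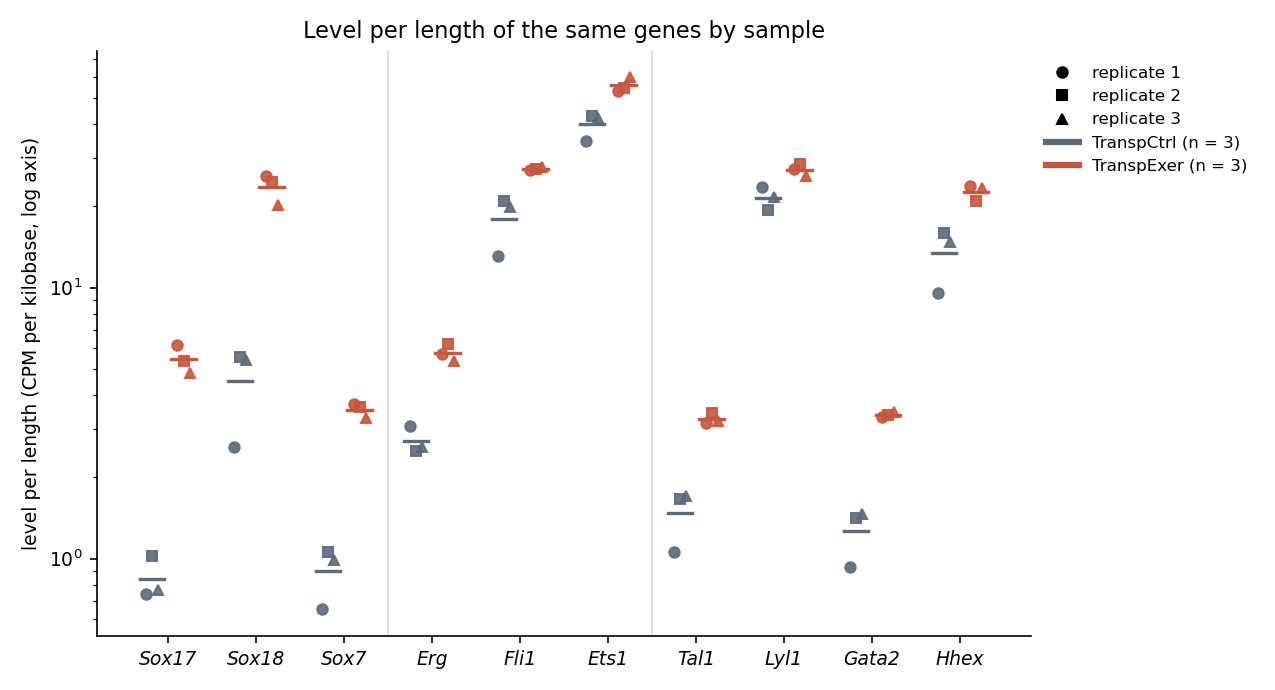
Level per length of the 10 genes (CPM per kilobase, log axis) in each sample, drawn as in the plot of normalized expression. *Sox18* lies below every *Hhex* point in TranspCtrl and spans them in TranspExer, and *Sox17* from 0.843 to 5.44 CPM per kilobase.

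Ratios of counts between members in the same sample do not depend on how libraries are scaled. They are given for 8 pairs that were chosen after their values were seen, so as a description with no test. The ratio of *Sox17* to *Sox7* was 0.523, 0.441 and 0.357 in TranspCtrl and 0.756, 0.680 and 0.671 in TranspExer, so the groups did not overlap. The ratio of *Sox17* to *Sox18* did overlap, at 0.267, 0.171 and 0.133 against 0.222, 0.205 and 0.224. *Sox18* per *Sox7* count was 1.95, 2.57 and 2.69 in TranspCtrl and 3.41, 3.32 and 3.00 in TranspExer. In each TranspExer sample, both relatives had more counts per *Sox7* count than in any TranspCtrl sample.

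Among the ETS genes, the ratio of *Erg* to *Fli1* was 0.231 in TranspCtrl replicate 1 but 0.117 and 0.128 in replicates 2 and 3, and 0.204, 0.221 and 0.188 in TranspExer. TranspCtrl replicate 1 thus lay on the side of the TranspExer samples for this ratio. The ratio of *Erg* to *Ets1* was at most 0.137 in TranspCtrl and at least 0.139 in TranspExer, separated by a narrow gap. *Tal1* per *Lyl1* count was higher in each TranspExer sample, going from 0.111, 0.210 and 0.194 to 0.285, 0.297 and 0.307. *Gata2* per *Tal1* count was 0.747, 0.721 and 0.727 in TranspCtrl and 0.894, 0.832 and 0.912 in TranspExer. For *Fli1* per *Ets1* count the groups overlapped, with 0.591, 0.765 and 0.736 in TranspCtrl against 0.804, 0.790 and 0.737 in TranspExer.

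The MSC cultures contained endothelial RNA in both groups. Of 10 endothelial markers (among them *Cdh5*, VE-cadherin, and *Pecam1*, CD31), all were counted in every sample, all 10 were higher in TranspExer past the adjusted p-value threshold and 8 were upregulated DEGs. Their summed level was 213 to 251 CPM in TranspCtrl and 650 to 699 CPM in TranspExer, a fold change of 2.88. This exceeds the fold change of *Erg*, *Tal1*, *Gata2*, *Hhex*, *Fli1*, *Ets1* and *Lyl1*, and lies below that of the SOXF genes.

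Each member was therefore set against the summed counts of these 10 markers in the same sample. *Sox17* had 5.26, 6.14 and 4.99 counts per 1000 marker counts in TranspCtrl and 14.3, 12.4 and 10.4 in TranspExer, a log2 difference of 1.15. *Sox18* and *Sox7* also had more per marker count, with log2 differences of 0.92 and 0.47, and no overlap between groups. The exact two-sided permutation p was 0.1 for each of the 3 genes, the smallest that 3 samples against 3 allow, so this test cannot pass 0.05.

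For *Ets1*, counts per 1000 marker counts went the other way, from 344, 361 and 382 in TranspCtrl to 173, 175 and 179.7 in TranspExer, a log2 difference of -1.04. *Lyl1*, *Fli1*, *Hhex* and *Erg* had log2 differences of -1.18, -0.88, -0.74 and -0.45, each without overlap (exact permutation p = 0.1), and the value of *Erg* was -0.29 without TranspCtrl replicate 1. *Gata2* and *Tal1* overlapped between groups, with log2 differences of -0.08 (exact permutation p = 0.7) and -0.34 (p = 0.2), the latter -0.22 without TranspCtrl replicate 3. The reference matters for most of these values. Against *Cdh5* alone, which rose more than the marker sum, *Sox7* had a difference of -0.05 (exact permutation p = 1) and *Sox18* one of 0.40 (p = 0.3), while *Sox17* stayed apart at 0.63 (p = 0.1). *Gata2* and *Tal1* were then lower without overlap, at -0.60 and -0.86. Against *Pecam1* alone, which rose less, *Hhex* and *Fli1* had differences of -0.08 and -0.22 (exact permutation p = 0.8 and 0.4), *Ets1* and *Lyl1* of -0.39 and -0.53, and *Erg*, *Tal1* and *Gata2* of 0.21, 0.31 and 0.58. The SOXF genes were further apart with this reference, at 1.80 for *Sox17*, 1.58 for *Sox18* and 1.13 for *Sox7* (exact permutation p = 0.1 each). With all 3 references, *Sox17* was higher and *Ets1* and *Lyl1* lower, without overlap. Each of these references rose in TranspExer, and no endothelial gene that hardly moved was used as a reference.

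**Figure D4:**
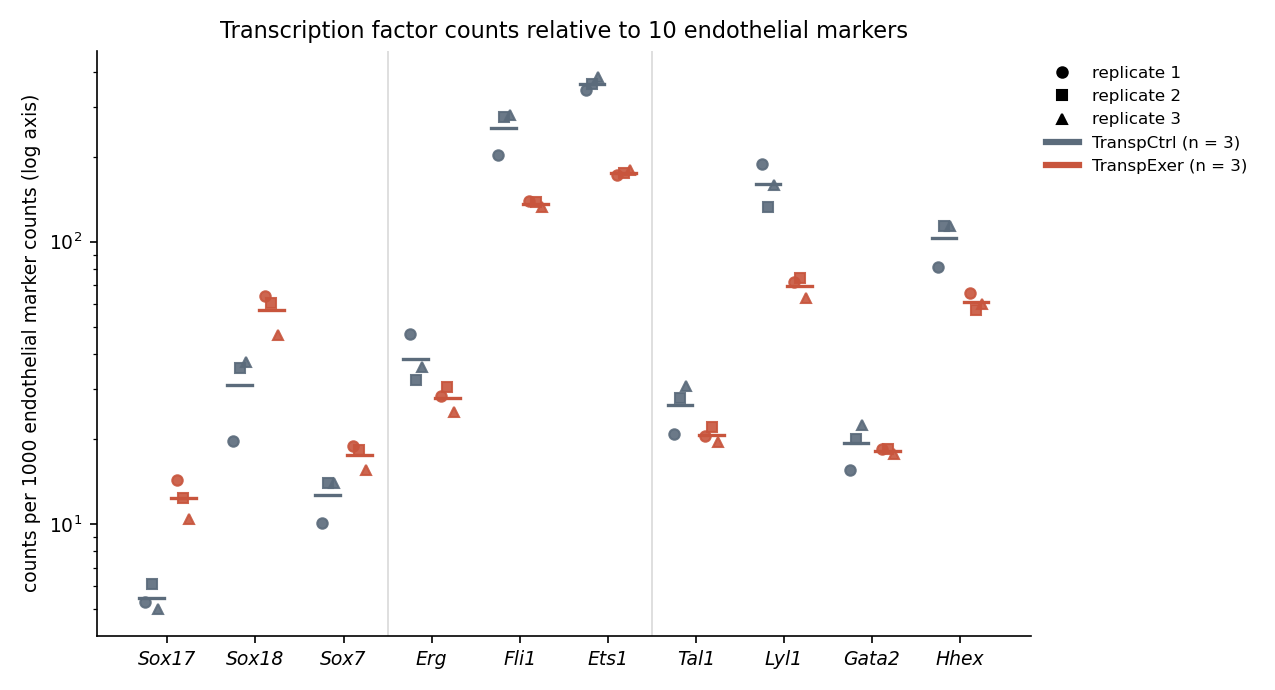
Counts of each gene per 1000 summed counts of 10 endothelial markers in the same sample (log axis), with TranspCtrl in grey, TranspExer in red and bars for the group means. *Sox17*, *Sox18* and *Sox7* lie higher in TranspExer, *Gata2* and *Tal1* overlap, and *Erg*, *Fli1*, *Ets1*, *Lyl1* and *Hhex* lie lower.

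Because most members also work in blood cells, marker lists of other marrow cells were read beside them. Of 8 stem and progenitor markers, 5 were upregulated DEGs, with summed levels of 65.0 to 77.2 CPM in TranspCtrl and 160.1 to 165.6 CPM in TranspExer. Of 8 megakaryocyte markers, 6 were upregulated DEGs, with 268 to 326 CPM against 500.3 to 535 CPM. The sums of these lists, which share regulators with *Tal1*, *Gata2*, *Fli1* and *Erg*, moved in the same direction as the members. Not all markers did. *Pf4*, with a mean of 152 CPM in TranspCtrl, had a log2 fold change of 0.02. *Cd34* and *Meis1* overlapped between groups (0.18 and 0.22), and *Flt3* was lower without overlap (-0.72, edgeR adjusted p = 0.0638). The part of these lists in the members' values was not tested.

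Mast cell and basophil markers, in which *Gata2* acts, summed to 60.4 to 79.1 CPM in TranspCtrl and 112 to 121 CPM in TranspExer, with 2 upregulated and 1 downregulated DEGs of 7 tested. Only 2 of 8 erythroid markers could be tested, *Gata1* and *Epor*, and both were upregulated DEGs. The globins, *Alas2* and *Klf1* had at most 5 counts in any sample, so red cell precursors were at or near 0 by these markers. The part of these lists was not tested.

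B cell markers moved against the members, with 254 to 267 CPM in TranspCtrl, 142 to 149.97 CPM in TranspExer, 4 downregulated DEGs of 7 tested and no upregulated DEG. T and NK cell markers had 2 downregulated DEGs and 1 upregulated DEG, *Il7r*, of 10 tested. Their median log2 fold change was -0.34, although the summed level, most of it *Il7r* in TranspExer, was higher, at 90.7 to 92.1 CPM in TranspCtrl against 174 to 180.3 CPM. Macrophage markers had no DEG among 8, with 4061 to 4795 CPM in TranspCtrl and 4547 to 4668 CPM in TranspExer. Neutrophil and granulocyte progenitor markers summed to 1444 to 2377 CPM against 3198 to 3472 CPM, with 4 upregulated DEGs of 8. These were *Mpo*, *Elane*, *Prtn3* and *Ctsg*, and *Mpo* alone had means of 216 CPM in TranspCtrl and 1197 CPM in TranspExer. *Ly6g* was lower (log2 fold change -0.54, edgeR adjusted p = 0.0375), and *Camp*, *S100a8* and *S100a9* did not pass the adjusted p-value threshold. Among 10 stromal markers, which define MSCs, 3 were downregulated DEGs, and 7 were lower and 1 higher at the adjusted p-value threshold. Their summed level was 14783, 22901 and 22007 CPM in TranspCtrl and 13777, 14424 and 15080 CPM in TranspExer. The groups overlapped through TranspCtrl replicate 1 only. Of 9 pericyte and smooth muscle markers, 5 were upregulated DEGs with a median log2 fold change of 1.01, although the summed level, most of it *Acta2* and *Tagln*, was lower, at 2489 to 2934 CPM against 1814 to 2024 CPM.

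Relatives of the members by DNA-binding family were counted in the same way. Of 17 tested other ETS genes, 1 was an upregulated DEG, 8 were higher and 1 lower at the adjusted p-value threshold, and the median log2 fold change was 0.29. The DEG was *Etv4*, an effector of FGF signalling, at 1.61, 2.16 and 2.56 CPM in TranspCtrl and 7.22, 8.43 and 8.54 CPM in TranspExer, with a log2 fold change of 1.93 (edgeR adjusted p = 0.000358). *Etv2*, the ETS factor that starts the endothelial program in the embryo, had no count in any sample.

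Of 6 tested other SOX genes, 1 was an upregulated DEG, *Sox11*, a factor of neural and mesenchymal progenitors, with a log2 fold change of 1.93 ± 0.23 (SE, edgeR adjusted p = 0.000755), and the median was -0.06. Of 3 tested other GATA genes, *Gata1* and *Gata3* were upregulated DEGs, at 1.18 and 1.17 on the log2 scale (edgeR adjusted p = 0.00143 and 0.00722). *Gata1* is the partner of TAL1 in red cells and megakaryocytes. Of 15 partners of TAL1, LYL1 and GATA2, 1 was an upregulated DEG, *Id2*, an inhibitor of helix-loop-helix factors, with a log2 fold change of 1.09 (adjusted p = 0.000137), and the median was 0.15.

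Of 15 tested other transcription factors with roles in vessels, 6 were upregulated DEGs and none was downregulated, with a median log2 fold change of 0.69. *Meox1* had a log2 fold change of 2.08, *Bcl6b*, a repressor found mainly in endothelium, one of 1.69, *Epas1*, the hypoxia-inducible factor of vessels, one of 1.54, and *Hey1*, a Notch target of arteries, one of 1.30 (edgeR adjusted p = 0.000248, 0.000155, 0.000258 and 0.00162).

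Of 32 endothelial effector genes, which include junction proteins, receptors and surface proteins that ETS and SOXF factors are known to act on, 21 were upregulated DEGs and 0 downregulated, with 26 higher and 1 lower at the adjusted p-value threshold. All 10 endothelial markers are among the 32, so 8 of the 21 DEGs were counted above. The 5 that did not pass were *Cd34*, *Clec14a*, *Efnb2*, *Ephb4* and *Icam2*, with log2 fold changes of 0.18 to 0.32. The lower gene was *Stab1*, a scavenger receptor of sinusoids and macrophages, with 939.9, 909 and 859.5 CPM in TranspCtrl and 622, 699 and 712 CPM in TranspExer (log2 fold change -0.41, edgeR adjusted p = 0.0109). Their median log2 fold change was 1.38, beside 1.12 for the transcription factors. The 4 with the smallest adjusted p-values were *Emcn*, a sialomucin of sinusoids, *Robo4*, a receptor that stabilises vessels, *Stab2*, a scavenger receptor of sinusoids, and *Kdr*, the main VEGF receptor, at 1.52, 2.59, 1.43 and 1.55 on the log2 scale (edgeR adjusted p = 5.25e-05, 6.19e-05, 6.19e-05 and 7.57e-05). The fold change of *Robo4* lay between those of *Sox18* and *Sox17*, and those of the other 3 lay between *Gata2* and *Sox7*.

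**Figure D5:**
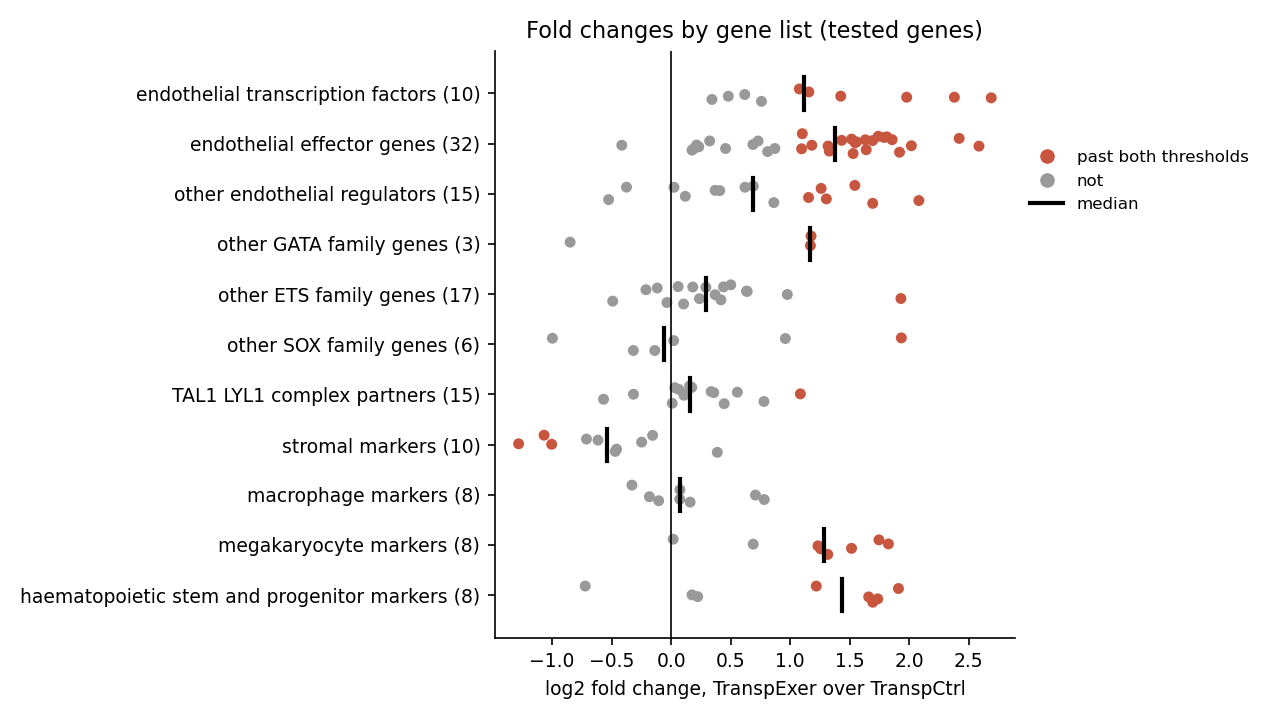
Log2 fold change, TranspExer over TranspCtrl, of every tested gene in the transcription factor list, in the lists of related genes and in 4 marker lists, with red points past both DEG thresholds, black bars at the medians and the number tested in brackets. The medians are 1.12 for the endothelial transcription factors, 1.38 for endothelial effector genes, 0.29 for other ETS genes and -0.54 for stromal markers.

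The genes most like *Erg* in pattern over the 6 samples were found by the root mean square difference in log2 CPM, each gene centred on its mean. The nearest were *Gfi1*, a repressor of blood progenitors and granulocytes (0.0401), *Cd300ld* (0.0486), *Arhgap22* (0.0504), *Atp6v0d2*, a proton pump subunit of osteoclasts (0.0707), and *Ripor3* (0.0777). The other members were farther from *Erg*, with *Tal1* the nearest at 0.318 and *Sox18* the farthest at 0.818. Like *Erg*, all 5 of these genes had their highest TranspCtrl value in replicate 1, which follows from how they were chosen.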

How the data were processed

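RNA-Seq of cultured bone marrow MSCs was examined in 3 TranspCtrl and 3 TranspExer samples, grouped by the sample titles. The deposited table holds expected counts without normalization for 56980 genes, beside a gene length, and 10.1% to 12.2% of a sample's values were fractional. The submitters' processing notes name mm10; the aligner, counter and annotation are not given in the sources used here. Positions and overlaps came from GENCODE M21 (GRCm38), which held 52073 of the gene identifiers, and promoter windows from RefSeq (GRCm38.p6).

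Counts were rounded. Tests used edgeR 4.0.16 in R 4.3.3 (filterByExpr, TMM, quasi-likelihood test with group as the only term) over 15190 genes, as a fit across all of them. Standard errors came from the fold change and F statistic, and 95% intervals from these. Ratios to markers were tested by exact two-sided permutation, with 0.5 added to member counts. Log2 CPM had a prior count of 2. Members, lists and tests were chosen with earlier results of these data known, and the 8 member pairs after their values were seen. Named were all members, from each of 6 lists of related genes the DEGs (at most 4, by adjusted p-value), and the 5 genes nearest *Erg*. *Etv2*, *Nfix*, *Stab1*, the endothelial effector genes that did not pass and marker genes were named outside this rule.

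Each choice was changed in turn. DESeq2 1.42.0 replaced edgeR, upper-quartile or library-size scaling replaced TMM, the filter was dropped or set to 1 CPM in 3 samples, counts were left unrounded, a replicate block was added, the threshold on fold change moved into the test, and every sample was left out once. Both tools were tested on simulated data. The changes planted there were larger than that of any member outside the SOXF group, so that test does not bear on those members.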

Additional observations from a re-analysis of the deposited data

How the results depend on the processing

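All 10 members kept a positive log2 fold change under the 14 alternatives, and *Sox17*, *Sox18* and *Sox7* passed both thresholds under all 14. With the threshold of 2 on fold change moved into the test, 3 members passed in place of 10 at the adjusted p-value threshold and of 6 past both thresholds, and 19 related genes passed in place of 32. Of all 15190 genes, 412 passed in place of 1333 past both thresholds, with 138 higher in TranspExer in place of 531. The members that lost significance there were *Gata2* (log2 fold change 1.42, adjusted p = 0.136) and, each with an adjusted p of 1, *Tal1* (1.16), *Erg* (1.08), *Hhex* (0.76), *Fli1* (0.62), *Ets1* (0.48) and *Lyl1* (0.34), since the test asks more of the same values. *Lyl1* had a log2 fold change of 0.25 with library-size scaling and 0.26 with upper-quartile normalization, neither past the threshold; the median of all genes was then -0.105 and -0.0974, beside -0.02.

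With single samples left out, the log2 fold change of *Sox17* stayed between 2.59 and 2.84, *Sox18* between 2.10 and 2.55, *Sox7* 1.79 and 2.11, *Gata2* 1.24 and 1.54, *Tal1* 0.96 and 1.27, *Erg* 1.01 and 1.17, *Hhex* 0.57 and 0.90, *Fli1* 0.44 and 0.75, *Ets1* 0.39 and 0.54, and *Lyl1* 0.28 and 0.41. Between 7 and 10 members passed the adjusted p-value threshold and 5 or 6 both thresholds, and 30 to 33 related genes were DEGs. Of the 15407 to 15625 genes tested in these fits, 1315 to 3417 were higher in TranspExer at the adjusted p-value threshold. Past both thresholds, 443 to 579 were higher. In the ratio to the markers, *Gata2* reversed from -0.08 to 0.034 without TranspCtrl replicate 3 (range -0.22 to 0.034) and to 0.58 against *Pecam1*, *Erg* to 0.21 and *Tal1* to 0.31 against *Pecam1*, and *Sox7* to -0.048 against *Cdh5*.

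With the replicate number as a block, 10 members passed the adjusted p-value threshold and 6 both thresholds, the log2 fold changes of *Erg* and *Lyl1* were 1.08 and 0.35, and 1286 of all genes were DEGs against 1333. Deviations of same-numbered samples had correlations across genes of 0.0247, -0.00167 and 0.0416, and those of differently numbered samples -0.0807 to 0.0736. With so few samples, this check cannot show whether the numbers pair the samples. The number of samples limits the exact tests, and counting error is largest for *Sox17*, which had the fewest counts (23 in one TranspCtrl sample).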
